A study of Mus musculus with 3 samples.

Results

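Deep and very shallow barcodes of 3 mouse medulloblastomas were compared for the make-up of their mRNA. Deep barcodes were those with at least 200 counts and shallow barcodes those with 50 to 99 counts, chosen by total count alone. Together they numbered 13972 of 20959 barcodes. The deep set held 2267 of them, with 1060, 148 and 1059 in tumours 1, 2 and 3. The shallow set held 11705, with 5887, 1542 and 4276. The remaining 6987 barcodes, of at least 100 and under 200 counts, enter only where depth is described as a series. Since the total count chose the members, depth is a description here and not a result. The make-up of the counts was not used by the rule, apart from a minimum of 50 genes that every deposited barcode met.

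All 3 tumours came from separate hGFAP-Cre/SmoM2 mice (G-Smo) on a C57BL/6 background. The human GFAP promoter drives Cre in their neural progenitors, which then express SmoM2, a Smoothened protein that signals without hedgehog ligand. Each mouse was injected intraperitoneally with palbociclib, which blocks the kinases CDK4 and CDK6 that drive cells into S phase, once a day on 5 days, at 25 mg/kg in the POx-palbo nanoparticle. Injections started on postnatal day 10 and tumours were taken on postnatal day 16. Deep and shallow barcodes of a tumour therefore share genotype, drug, dissociation and library. Tumours without drug are not analysed here.

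In Drop-seq, papain-dissociated cells are caught in droplets with beads that carry a cell barcode and an oligo-dT primer. A droplet that caught no intact cell still holds RNA that leaked from broken cells into the suspension, and its bead gives a barcode with few counts. Cytosolic mRNA leaks readily when a membrane breaks, whereas RNA held in the nucleus or inside mitochondria tends to stay with the cell body. Small cells, damaged cells and droplets with free RNA all give shallow barcodes, and these counts cannot tell them apart. Each count is a unique molecular identifier (UMI), a tag that marks 1 captured mRNA molecule. Levels below are counts per 10000 non-mitochondrial counts of the summed barcodes of a set, or the same as a percentage.

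Deep barcodes held 439953, 41185 and 373337 non-mitochondrial counts in tumours 1, 2 and 3, and shallow barcodes 430092, 104423 and 330156. The median barcode had 353.5, 255.5 and 301 counts in the deep sets and 74, 75 and 82 in the shallow sets. Tumour 2 stood apart. It had the fewest deep barcodes, and 37.2% of them were above 10% mitochondrial counts, against 9.15% and 12.7% in tumours 1 and 3. Of its shallow barcodes 55.3% were above that level, against 2.14% and 7.18%. Values of tumour 2 are therefore given apart from those of the others wherever they differ. Calls without it are given for the whole comparison and for lists where a count moved by at least 3 genes and by more than 1.5 times. All 16 listed granule neuron progenitor markers and all 15 granule neuron markers had a count. So did all 16 astrocyte and all 16 myeloid markers, and 18514 of 19744 genes in all. Detection by itself therefore does not mark the tumour lineage.

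Of 6560 genes tested, 1110 (16.9%) differed between deep and shallow barcodes. Of all tested, 516 (7.87%) were higher and 594 (9.05%) lower in deep than in shallow barcodes at an adjusted p under 0.05 (edgeR's quasi-likelihood test with tumour as a block, Benjamini-Hochberg adjustment). The median gene did not lean either way, with a log2 fold change of 0.04. Of the calls, 412 higher and 517 lower genes moved that way in all 3 tumours. The 3 values of 1 set lay outside the range of the other set for 1508 genes (23%). The calls lean on the deeper tumours. Without tumour 1 no gene passed, while 595 were under an unadjusted p of 0.05, and without tumour 3 the test called 11 higher and 30 lower genes. Without tumour 2 it called 835 higher and 844 lower of 7227 tested genes. Among genes tested in those fits every call of the full comparison kept its direction, 1027 genes without tumour 1, 1105 without tumour 2 and 1077 without tumour 3. Those fits share tumours with the full comparison, so this is no independent check.

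Genes of the protein synthesis machinery were prominent among those that fell. Of 73 tested genes for cytosolic ribosomal proteins, which build the ribosome, 58 were lower in deep barcodes and none was higher, with a median log2 fold change of −1.18 beside 0.04 for all genes. Ribosomal protein mRNAs together took 1.61%, 1.46% and 2.34% of non-mitochondrial counts in deep barcodes of tumours 1, 2 and 3, against 4.84%, 2.41% and 4.85% in shallow barcodes. The highest deep tumour lay just under the lowest shallow one, and the shallow level was 3.00, 1.65 and 2.07 times the deep level within tumours 1, 2 and 3. Without tumour 2, 63 of 76 tested ribosomal protein genes were lower, with a median of −1.26.

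Many ribosomal protein mRNAs begin with a run of C and T bases, the 5′ terminal oligopyrimidine tract, through which their translation is held back or released as a group. The starts of 4 of the lowest members are shown, as 40 bases before and 20 bases after the annotated gene start (RefSeq, GRCm38.p6, gene strand, 5′ to 3′). Capitals mark a run of at least 6 C or T bases that lies within 3 bases of the start.
Rps26, chr10:128626487-128626546, minus strand: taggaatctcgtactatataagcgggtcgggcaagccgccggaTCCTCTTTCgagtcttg
Rpl34, chr3:130730318-130730377, minus strand: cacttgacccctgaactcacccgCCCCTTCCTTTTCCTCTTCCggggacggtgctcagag
Rps24, chr14:24490638-24490697, plus strand: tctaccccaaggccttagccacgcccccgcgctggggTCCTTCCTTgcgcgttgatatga
Rpl31, chr1:39367811-39367870, plus strand: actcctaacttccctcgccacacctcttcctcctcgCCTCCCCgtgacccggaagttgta
Such a run, searched on the gene strand only, stood at the start of 29 of 65 ribosomal protein genes with a listed start (44.6%) and of 5217 of 27025 genes in all (19.3%). Among the other protein-coding genes lower in deep barcodes it stood at 60 of 352 starts (17.0%), a share close to that of all genes, and among those higher at 79 of 392 (20.2%).

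Rps26, a small-subunit protein at the mRNA exit channel, had 2.61, 2.19 and 5.36 counts per 10000 in deep barcodes of tumours 1, 2 and 3, against 10.7, 5.08 and 14.3 in shallow barcodes (log2 fold change −1.64 ± 0.25 SE, adjusted p = 1.04e-06). Every tumour was lower in its deep set, although the deep level of tumour 3 reached above the shallow level of tumour 2. Rpl34, of the large subunit, had 1.77, 1.46 and 3.51 counts per 10000 in deep barcodes and 7.14, 4.69 and 8.57 in shallow barcodes, so its sets did not overlap (−1.64 ± 0.26, adjusted p = 1.59e-06). Rps24 (2.27, 1.94 and 4.04 against 9.30, 5.75 and 8.90) and Rps19, whose loss causes Diamond-Blackfan anaemia in humans (7.27, 7.77 and 12.1 against 26.5, 19.3 and 26.4), were likewise separate. Not all members moved. Rpl9, Rpl24, Rpl21 and Rpl5 had log2 fold changes of 0.65, 0.31, 0.09 and 0.01 with adjusted p of 0.437 or more, each on few counts, such as 31, 2 and 25 for Rpl24 in deep barcodes and 21, 5 and 20 in shallow barcodes. Ribosomal protein genes have many near-identical processed pseudogenes, and how reads shared with these were counted is not given in the sources used here, so values of single members are uncertain.

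Those pseudogenes were counted too, and went the same way. Of 148 tested processed pseudogenes, copies of mRNA pasted back into the genome, 56 were lower in deep barcodes and none was higher, with a median of −0.96. Gm8292 had 1.02, 0.728 and 1.42 counts per 10000 in deep barcodes against 5.00, 2.87 and 4.00 in shallow barcodes (log2 fold change −1.90 ± 0.28, adjusted p = 2.5e-07). Gm9800 had 7.73, 12.6 and 12.2 against 21.4, 28.1 and 23.2 (−1.18 ± 0.23). Reads of a pseudogene and of its parent mRNA cannot be told apart here. Of 176 tested genes with predicted gene (Gm) names, 7 were higher and 53 lower, and without tumour 2, 10 and 80 of 204.

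Of 33 tested translation factors 15 were lower and 1 was higher, with a median of −0.67. Tpt1, the translationally controlled tumour protein, was among the lower genes. It had 0.750, 0.243 and 0.402 counts per 10000 in deep barcodes and 2.35, 0.192 and 1.21 in shallow barcodes. Its levels in tumour 2 rest on very few counts, too few to show a direction. Btf3 and Naca, the subunits of the nascent polypeptide-associated complex that meets new chains at the ribosome exit, were lower by −1.34 ± 0.28 and −1.23 ± 0.26 on the log2 scale. The exception was Eif4g1, the long scaffold of the cap-binding complex. It had 7.86, 5.10 and 8.30 counts per 10000 in deep barcodes against 2.30, 2.39 and 3.88 in shallow barcodes (1.36 ± 0.25, adjusted p = 2.64e-05).

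Many nuclear genes for mitochondrial proteins were also lower. Of 78 tested subunits and assembly factors of oxidative phosphorylation 41 were lower and 1 was higher, with a median of −0.83. They took 1.41%, 1.57% and 1.74% of counts in deep barcodes and 2.58%, 2.10% and 2.56% in shallow barcodes. Atp5e and Atp5k, small subunits of ATP synthase, had log2 fold changes of −1.52 ± 0.26 and −1.42 ± 0.26. Ndufa6 and Ndufa13, of complex I, had −1.37 ± 0.27 and −1.30 ± 0.26. Cox17, which carries copper to complex IV, had 0.50, 0.971 and 0.830 counts per 10000 in deep barcodes and 2.16, 1.53 and 2.42 in shallow barcodes (−1.69 ± 0.32, adjusted p = 4.64e-05). Of 68 tested mitochondrial ribosomal proteins, which are coded in the nucleus, 20 were lower and none was higher. Without tumour 2, 34 of 73 were lower, and DESeq2 called 1 of the 68 lower. Mrpl54 was the lowest of them (−1.96 ± 0.43), on 8, 1 and 13 counts in deep barcodes against 38, 4 and 42 in shallow barcodes.

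**Figure D1:**
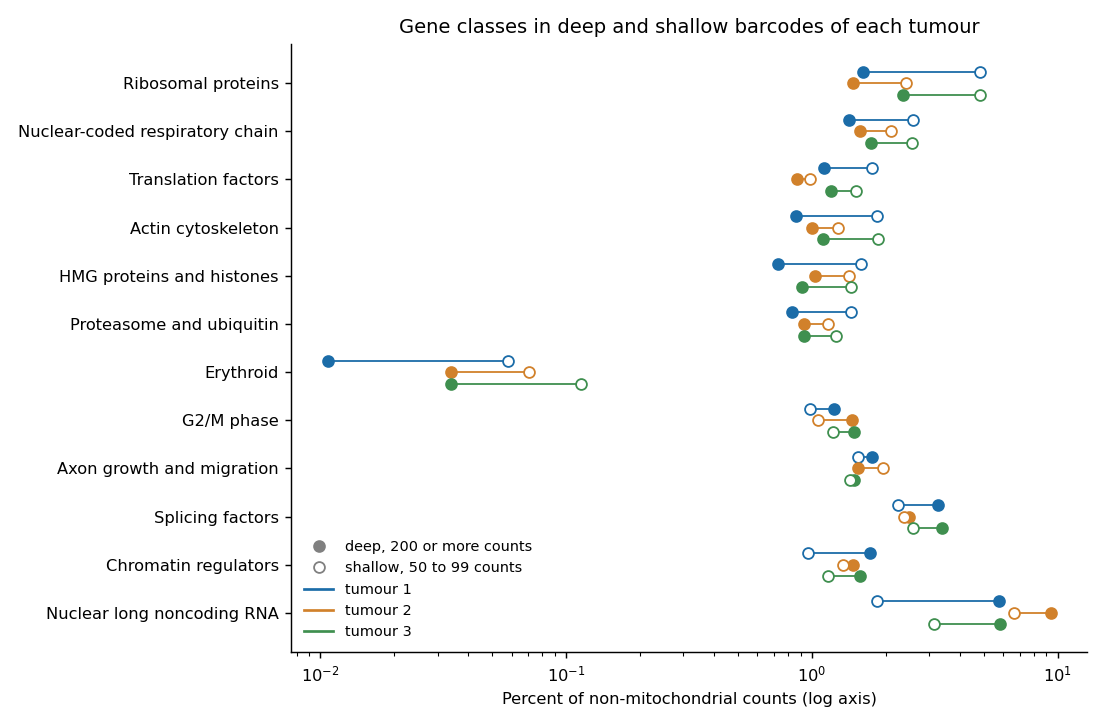
Share of non-mitochondrial counts (log axis) taken by 12 gene classes in deep barcodes (filled points) and shallow barcodes (open points) of tumours 1, 2 and 3, each pair joined by a line. Ribosomal protein, respiratory, actin and erythroid mRNAs lie further right in the shallow sets, whereas chromatin regulators and nuclear long noncoding RNA lie further right in the deep sets; the gaps of tumour 2 are the smallest in most classes.

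Small abundant proteins of the cytosol and of chromatin formed the next groups. Of 25 tested actin cytoskeleton genes 10 were lower and none was higher (median −0.56). Tmsb10, a thymosin that binds actin monomers, had 4.52, 8.01 and 13.7 counts per 10000 in deep barcodes against 18.7, 20.5 and 32.2 in shallow barcodes, with no overlap (−1.56 ± 0.23, adjusted p = 7.61e-07). Tmsb4x, Pfn1 and Dstn, which also bind actin monomers or sever filaments, had log2 fold changes of −1.06 ± 0.23, −1.18 ± 0.25 and −1.32 ± 0.26. Actb itself, cytoplasmic actin, was lower by less (−0.73 ± 0.23, adjusted p = 0.0162), with 36.8, 20.4 and 39.8 counts per 10000 in deep barcodes and 75.1, 28.2 and 62.3 in shallow barcodes. Of 19 tested HMG proteins and histones 10 were lower and none was higher (median −0.84). Ptma, an acidic nuclear protein, had 10.8, 16 and 14.9 counts per 10000 in deep barcodes and 27.2, 30.4 and 27.9 in shallow barcodes. Hist1h1e, a linker histone, Hmgn1, a nucleosome-binding protein, and H3f3a, the replication-independent histone H3.3, fell by 1.30, 1.02 and 1.25 on the log2 scale.

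Of 31 tested proteasome and ubiquitin genes 12 were lower and none was higher (median −0.50). Psmb1 and Psmb2, of the proteasome's core ring, had log2 fold changes of −1.20 ± 0.26 and −1.17 ± 0.27. Psmd2 and Psmc2, of the regulatory cap, had 0.52 and 0.08 and did not pass (adjusted p = 0.145 and 0.875). The endoplasmic reticulum and secretory list showed both directions, with 3 of 30 higher and 6 lower, though DESeq2 called none of the 30. Its lower members included Sec61b and Sec61g, the small subunits of the translocation channel (−0.97 ± 0.27 and −1.11 ± 0.34), and Ostc and Krtcap2, small subunits of the oligosaccharyl transferase (−1.15 ± 0.32 and −1.09 ± 0.29). Rpn2, a large subunit of that transferase, was higher (0.88 ± 0.28, adjusted p = 0.02). Of 21 tested heat shock genes 2 were higher and 2 lower (9.52% each), close to the shares over all genes. The chaperones Hspa5 and Hsp90b1 rose (1.13 ± 0.23 and 0.98 ± 0.23), and the co-chaperonin Hspe1 fell (−1.25 ± 0.28).

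The listed nuclear noncoding RNAs stood on the other side. Of 5 tested members 4 were higher and none was lower in deep barcodes (median 1.31). Long intergenic noncoding RNAs as a class did not share this lean. Of 31 tested, 5 were higher (16.1%) and 4 lower (12.9%), beside 7.87% and 9.05% of all genes, with a median of −0.02. Xist, the RNA that coats the inactive X chromosome, had 36.6, 26.0 and 32.7 counts per 10000 in deep barcodes against 6.53, 14.5 and 9.75 in shallow barcodes (1.74 ± 0.24, adjusted p = 5.77e-08). Tsix, transcribed antisense across Xist, had 8.64, 7.04 and 9.54 against 0.907, 4.31 and 1.97 (2.21 ± 0.27, adjusted p = 4.86e-10). The strand setting of the counting is not given in the sources used here, so reads of Xist and Tsix cannot be told apart. Miat, a nuclear long noncoding RNA of neurons, had a log2 fold change of 1.31 ± 0.27. Meg3, an imprinted RNA, did not pass (0.30 ± 0.29, adjusted p = 0.515).

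Malat1, the RNA of nuclear speckles, had the most counts of any non-mitochondrial gene. It took 525, 903 and 534 counts per 10000 in deep barcodes of tumours 1, 2 and 3, against 175, 638 and 300 in shallow barcodes (0.97 ± 0.25, adjusted p = 0.00267). Each tumour was higher in its deep set, but the shallow level of tumour 2 was above the deep levels of tumours 1 and 3. Only 9 of 1060 deep barcodes of tumour 1 had no Malat1 count, against 1978 of 5887 shallow barcodes (33.6%). In tumour 2 these shares were 0.68% and 3.37%, and in tumour 3 0.66% and 14.1%. These shares move with depth. With each barcode thinned to 50 counts, a deep barcode held 2.55, 4.82 and 2.60 Malat1 counts on average and a shallow barcode 0.874, 3.08 and 1.48. In single barcodes the median Malat1 share was 4.64%, 9.07% and 4.70% in deep and 1.41%, 5.42% and 2.63% in shallow barcodes.

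Because the beads capture RNA by its A tail, the longest stretches of A in these transcripts are shown. The stretch is in capitals, with 20 bases on each side (GENCODE M21 transcripts on GRCm38, transcript strand, 5′ to 3′).
Malat1, bases 6654 to 6705 of 6983: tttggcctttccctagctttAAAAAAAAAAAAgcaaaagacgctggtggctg
Xist, bases 536 to 592 of 17946: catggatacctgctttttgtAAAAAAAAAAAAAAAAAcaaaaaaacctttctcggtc
Tsix, bases 1040 to 1089 of 4306: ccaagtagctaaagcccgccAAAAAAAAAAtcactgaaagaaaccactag
mt-Rnr2, bases 375 to 421 of 1582: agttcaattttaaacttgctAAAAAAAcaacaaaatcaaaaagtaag
A stretch of at least 10 A stood in 126 of 510 genes higher in deep barcodes (24.7%), in 46 of 589 lower genes (7.81%) and in 1131 of 6523 tested genes (17.3%). Higher genes also have longer transcripts, with a median of 5367 against 1158.5 bases for lower and 2989 for all protein-coding genes tested. The part of A stretches in the differences was not tested.

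Chromatin regulators lay on the side of the listed nuclear RNAs, opposite to the histones and HMG proteins. Of 38 tested chromatin regulators 15 were higher and none was lower (median 0.66). They took 1.72%, 1.47% and 1.57% of counts in deep barcodes and 0.960%, 1.34% and 1.16% in shallow barcodes. Kmt2a and Kmt2c, methyltransferases of histone H3, had 6.91, 8.98 and 5.33 and 4.43, 3.16 and 3.00 counts per 10000 in deep barcodes, against 2.28, 4.5 and 3.15 and 1.44, 1.63 and 1.36 in shallow barcodes. The remodelling ATPases Chd3, Chd4 and Chd8 had log2 fold changes of 1.07 ± 0.26, 0.92 ± 0.23 and 1.18 ± 0.30. Ezh2 and Eed, of the Polycomb repressive complex, had −0.19 and −0.04 and did not pass. Of 41 tested splicing factors 5 were higher (12.2%, beside 7.87% of all genes tested) and none was lower (median 0.33). Without tumour 2, 8 of 41 were higher, beside 835 of all 7227 genes tested there. DESeq2 called 1 of the 41, and edgeR with a deep set of at least 500 counts called 0 of 40. Son and Srrm2, giant scaffold proteins of nuclear speckles, had 0.94 ± 0.23 and 0.75 ± 0.23, and Srrm2 in tumour 2 was 12.9 counts per 10000 in deep and 14.2 in shallow barcodes.

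The 12 higher genes with the largest changes, among those higher in every tumour and with at least 100 counts, were Fcrls, Tsix, Gria3, Nes, Col11a1, Xist, A330076H08Rik, Tmem245, Tm9sf2, Col4a1, Adamts1 and 2610203C20Rik. Their log2 fold changes lay between 1.59 and 2.28. Fcrls, a microglial receptor, had 0.796, 0.971 and 1.18 counts per 10000 in deep barcodes and 0.209, 0 and 0.242 in shallow barcodes. Nes, the intermediate filament of neural stem cells, had 2.32, 0.243 and 1.26 against 0.419, 0.192 and 0.424. Its levels in tumour 2 rest on very few counts, too few to show a difference or its absence. Col4a1 and Col11a1, collagens of basement membrane and of fibrils, had 1.65 ± 0.33 and 1.87 ± 0.31. Gria3, a subunit of AMPA glutamate receptors, had 2.06 ± 0.36.

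The 12 lower genes by the same rule were Gm11942, Nme2, Mrpl54, Hbb-bs, Gm8292, Smim11, Gm13092, Hba-a1, Cox17, Snrpg, Rpl31 and Gm15427, with log2 fold changes between −2.23 and −1.66. Nme2, a nucleoside diphosphate kinase, had 0.568, 0.243 and 0.402 counts per 10000 in deep barcodes and 2.60, 0.575 and 1.54 in shallow barcodes. Snrpg, a small core protein of spliceosomal particles, had 0.841, 0.728 and 2.06 against 4.05, 2.39 and 4.66 (−1.68 ± 0.28, adjusted p = 4.71e-06). Its coding sequence has 228 nt, against 7431 nt for Son and 8109 nt for Srrm2, the speckle scaffolds that were higher. Gm11942 rested on tumours 1 and 2, since tumour 3 had 1 count in the deep and 2 counts in the shallow set.

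**Figure D2:**
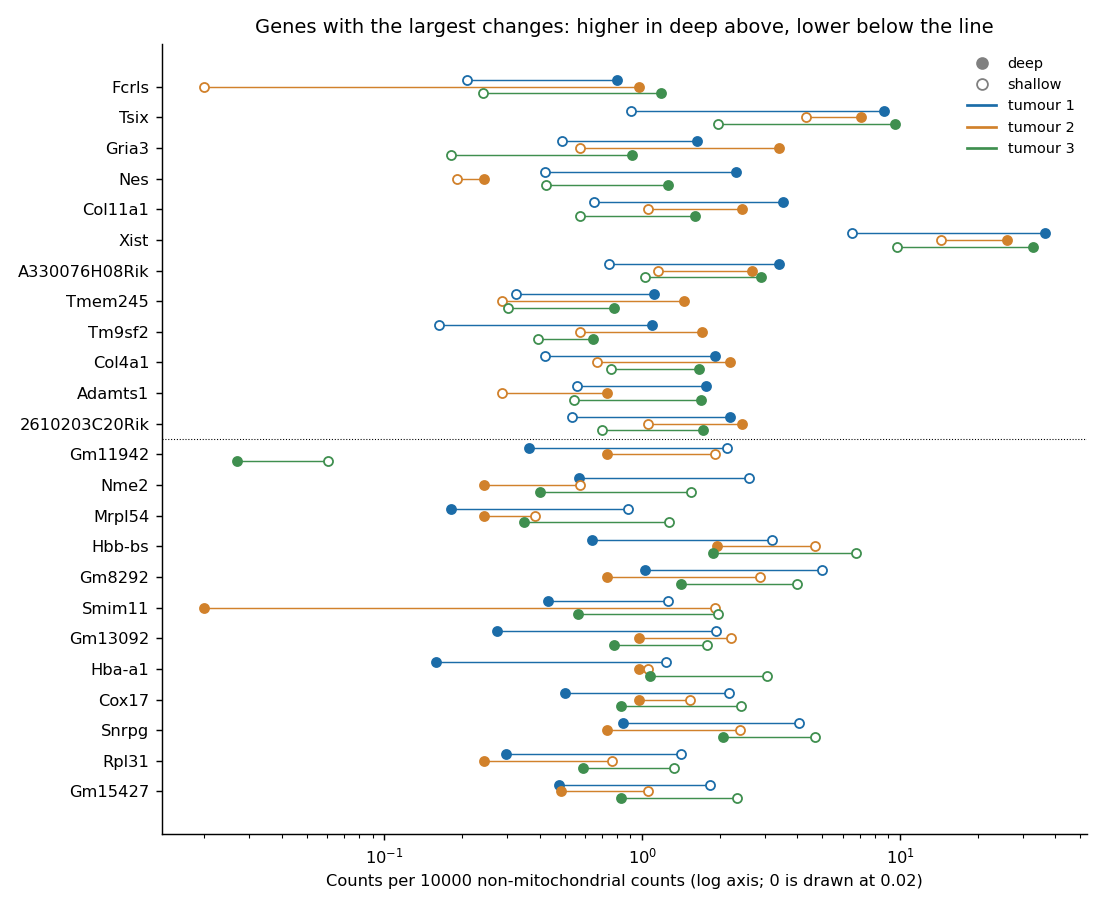
Counts per 10000 non-mitochondrial counts (log axis, 0 drawn at 0.02) of the 12 genes with the largest increases in deep barcodes, above the dotted line, and the 12 with the largest decreases, below it, in deep (filled) and shallow (open) barcodes of each tumour. Xist and Tsix combine high levels with wide gaps in tumours 1 and 3. The pairs of Nes and Hba-a1 nearly meet in tumour 2, where Nes rests on very few counts.

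Higher and lower genes differed in the length of their coding sequence, taken from the longest coding transcript of GENCODE M21. The isoform present may be shorter, as is likely for Naca, listed with 6561 nt. Among 6279 tested protein-coding genes the median coding length was 3132 nt for genes higher in deep barcodes, 472.5 nt for lower genes and 1332 nt for all. Of 672 genes under 500 nt, 3 were higher and 281 lower, with a median log2 fold change of −0.82. From 500 to under 1000 nt 12 of 1529 were higher and 203 lower (−0.42), and from 1000 to under 2000 nt 108 of 2191 were higher and 34 lower (0.11). From 2000 to under 3000 nt 113 of 962 were higher and 2 lower (0.42). At 3000 nt or more 261 of 925 were higher and 2 lower (0.72). Genes under 500 nt took 7.76%, 9.55% and 9.93% of counts in deep barcodes of tumours 1, 2 and 3, against 16.5%, 13.0% and 16.4% in shallow barcodes. Genes of at least 3000 nt took 19.2%, 16.8% and 17.2% in deep barcodes, against 9.71%, 14.5% and 11.7% in shallow barcodes.

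The gradient did not rest on ribosomal and respiratory genes. With the lists for translation and respiration left out, the medians of the 5 length classes were −0.76, −0.41, 0.11, 0.42 and 0.72. Within the class under 500 nt the 44 ribosomal protein genes had a median of −1.26 and the 45 oxidative phosphorylation genes −0.92, beside −0.76 for the other 556 genes. Across genes, Spearman's rho between coding length and log2 ratio was 0.71, 0.18 and 0.56 in tumours 1, 2 and 3. Genes are not independent replicates, and all points of a tumour share its 2 sums, so these are given as a description. In tumour 2 the class medians ran from −0.33 to 0.24, against −1.02 to 0.99 in tumour 1 and −0.67 to 0.56 in tumour 3. This rank correlation over the 3 tumours together was lower for spliced transcript length (0.57) and for the span of the gene on the genome (0.41) than for coding length (0.70).

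**Figure D3:**
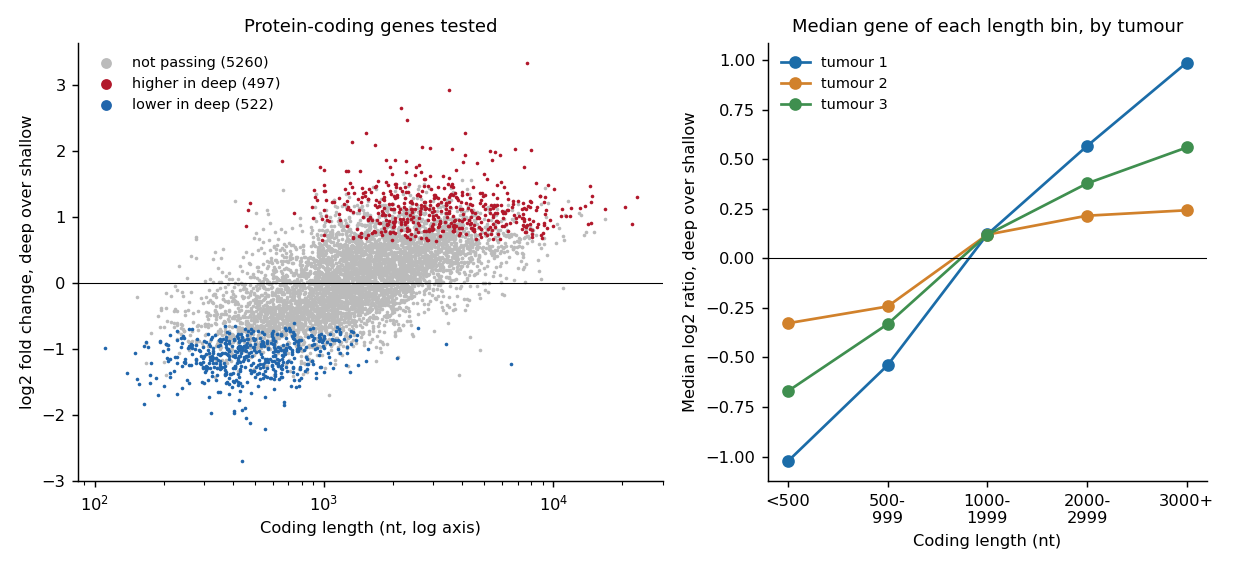
Left, log2 fold change of deep over shallow barcodes against coding length (nt, log axis) for 6279 protein-coding genes, with 497 higher genes in red, 522 lower genes in blue and the others in grey. Right, median log2 ratio of 5 length classes in each tumour, which goes up with length in all 3 and least in tumour 2.

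Of 50 tested G2/M genes 11 were higher (22%) and 3 lower (6.00%), beside 7.87% and 9.05% of all genes tested. With the deep set held under 500 counts, 5 of 47 were higher and 3 lower. Mki67, a large chromosome coat protein and a marker of cycling cells, had 12.3, 12.9 and 13.7 counts per 10000 in deep barcodes against 3.95, 4.21 and 5.69 in shallow barcodes (1.49 ± 0.23, adjusted p = 1.65e-06). Cenpe, a kinetochore motor, had 1.06 ± 0.24. The coding sequences of Mki67 and Cenpe have 9531 and 7413 nt. The lower members were Hmgb2, Birc5 and Ube2c (−1.02 ± 0.24, −0.98 ± 0.31 and −0.88 ± 0.29), with 630, 420 and 537 nt. Hmgb2 is a chromatin protein, Birc5 a chromosomal passenger protein and Ube2c a mitotic ubiquitin-conjugating enzyme. The G2/M list as a whole took 1.23%, 1.45% and 1.49% of counts in deep barcodes and 0.984%, 1.06% and 1.22% in shallow barcodes, and the lowest deep value was just above the highest shallow one. Of 37 tested S-phase genes 3 were higher (8.11%) and 1 was lower (2.70%), shares near or under those of all genes. Without tumour 2 the test called 6 higher and 1 lower of 38, beside 835 and 844 of all 7227 genes.

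Of 38 tested genes for axon growth and migration 11 were higher (28.9%) and 4 lower (10.5%). DESeq2 called 2 higher and 3 lower. The list took 1.76%, 1.55% and 1.49% of counts in deep barcodes and 1.54%, 1.94% and 1.42% in shallow barcodes. In tumour 2 it was thus lower in the deep set. The adhesion molecules Cntn2, L1cam and Robo1 and the motors Kif1a and Kif5a were higher, with log2 fold changes of 1.19, 1.30, 1.37, 1.18 and 1.03. Cntn2 in tumour 2 went the other way, with 3.16 counts per 10000 in deep and 3.54 in shallow barcodes. Their coding sequences have 3120, 3777, 4865, 5373 and 3081 nt. The growth cone proteins Stmn1, Stmn2, Gap43 and Marcksl1, with 447, 537, 681 and 600 nt, had log2 fold changes of −1.12, −0.74, −0.83 and −0.85. Stmn1, which binds tubulin dimers, had 4.93, 6.56 and 5.84 counts per 10000 in deep barcodes against 12.7, 13.6 and 11.1 in shallow barcodes.

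The pathways of this tumour model and its drug were listed apart. Hedgehog pathway genes together took 0.389%, 0.282% and 0.400% of counts in deep barcodes and 0.381%, 0.273% and 0.377% in shallow barcodes. Of 9 tested members 3 passed and were higher (33.3%, beside 7.87% of all genes tested), among them Gli1 and Boc (1.28 ± 0.38 and 1.44 ± 0.42), which had 3 and 0 deep counts in tumour 2. Gli1 is a transcription factor and target of the pathway, and Boc a co-receptor. By limma-voom 3 of the 9 were higher, and by DESeq2 none passed. In edgeR none passed with a deep set of at least 500 counts or with a shallow set of 50 to 74 counts. Of 19 tested CDK4/6 pathway genes none passed in either direction by edgeR, DESeq2 or limma-voom, and 3 were under an unadjusted p of 0.05 in edgeR (median −0.26). That median was 0.07 with a deep set of at least 500 counts and 0.02 with a shallow set of 50 to 74 counts. Without tumour 2, 3 of 23 were higher and 1 was lower, beside 835 higher and 844 lower of all 7227 genes tested there. The 31 neural transcription factors gave 1 higher and 2 lower genes, with a median of 0.03. The progenitor list took 0.502%, 0.454% and 0.551% in deep barcodes and 0.440%, 0.460% and 0.483% in shallow barcodes. Of its 12 tested members 3 were higher (Gli1, Boc and Barhl1, a homeobox factor of the lineage, 0.66 ± 0.24) and none was lower. DESeq2 called none of the 12. The lineage factors Zic1 and Atoh1 did not pass, with log2 fold changes of −0.03 and −0.07 (adjusted p = 0.948 and 0.889).

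Red cell genes were lower in deep barcodes, all 4 of the globin genes tested, Hbb-bs, Hbb-bt, Hba-a1 and Hba-a2. The list took 0.0107%, 0.0340% and 0.0340% of counts in deep barcodes (47, 14 and 127 counts) and 0.0581%, 0.0709% and 0.115% in shallow barcodes (250, 74 and 380 counts). Hbb-bs, adult beta globin, had 0.636, 1.94 and 1.88 counts per 10000 in deep barcodes against 3.19, 4.69 and 6.72 in shallow barcodes (−1.92 ± 0.27, adjusted p = 9.61e-08). Hba-a1 and Hba-a2 are near-identical copies whose reads can be split, and Hba-a2 in tumour 2 had 2 counts in deep and 4 in shallow barcodes, a higher level in the deep set. In tumour 1 a single shallow barcode held 22 of the 250 counts of the list. With each barcode thinned to 50 counts, a deep barcode held 0.0066, 0.0270 and 0.0142 counts of the list on average and a shallow barcode 0.0285, 0.0337 and 0.0561. In tumour 2 this rests on 4 deep counts, and another thinning seed turned its direction, with 0.0405 in deep and 0.0350 in shallow barcodes.

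Some markers of other brain cells were higher in deep barcodes. Of 12 tested myeloid markers 3 were higher, among them Ctss and C1qc (1.27 ± 0.30 and 1.07 ± 0.32), and none was lower. The list took 0.0991%, 0.308% and 0.156% of counts in deep barcodes and 0.0972%, 0.0546% and 0.0842% in shallow barcodes, so tumour 1 showed almost no difference. In tumour 2, 88 of its 127 deep myeloid counts were in barcodes of 500 or more counts, of which that tumour had 9, and in tumour 3 this held for 410 of 583. In the bin from 200 to under 500 counts the list took 0.0783%, 0.119% and 0.0718%, below the shallow share in tumours 1 and 3. With the deep set held to that bin, none of 7 tested members was under an unadjusted p of 0.05 in edgeR (median −0.12). Of 13 astrocyte markers Apoe, Slc1a2 and Sparcl1 were higher and Fabp7, a small fatty acid binding protein, was lower (−1.42 ± 0.37), and in the bin under 500 counts 1 of 7 was higher and 1 lower. Apoe, a lipid carrier also made by microglia, had 16.7, 23.8 and 30.2 counts per 10000 in deep barcodes and 13.6, 5.55 and 9.87 in shallow barcodes. Cldn5, a tight junction protein of endothelium, was higher (1.86 ± 0.47) among 3 endothelial markers, on 24, 9 and 24 counts in deep and 11, 2 and 5 in shallow barcodes. Its level was 0.0458, 0.608 and 0.208 counts per 10000 in the bin from 200 to under 500 counts and 1.04, 8.43 and 1.44 above it, against 0.256, 0.192 and 0.151 in shallow barcodes. The 1 endothelial marker tested with the deep set held under 500 counts did not pass (−0.44). Vcan, a proteoglycan, was higher among 4 oligodendrocyte precursor markers (1.43 ± 0.29).

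Myelin basic protein mRNA leaned the other way without passing. Mbp had a log2 fold change of −0.82 ± 0.31 (adjusted p = 0.0529). Of 5 tested oligodendrocyte markers 1 was higher and none was lower (median −0.60). The list took 0.104%, 0.236% and 0.0798% of counts in deep barcodes and 0.205%, 0.0948% and 0.166% in shallow barcodes. Without tumour 2, where the oligodendrocyte list was higher in deep barcodes, 4 of 7 tested members were lower and 1 was higher. Neutrophil markers had 45, 0 and 0 counts in deep barcodes and 2, 0 and 2 in shallow barcodes, and lymphocyte markers 1, 0 and 2 against 2, 0 and 2, and none of either list was tested.

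Transcripts of the mitochondrial genome did not enter the scaling and were measured apart. Their mRNA and their large rRNA differed. The 10 mRNAs with counts, which code for respiratory chain subunits made inside the organelle, came to 2.37%, 2.15% and 1.60% of non-mitochondrial counts in deep barcodes and 0.468%, 1.05% and 0.450% in shallow barcodes. The deep level was thus 5.06, 2.05 and 3.56 times the shallow level in tumours 1, 2 and 3, and the sets did not overlap. mt-Cytb, of complex III, had 51.8, 56.6 and 51.6 counts per 10000 in deep barcodes and 10.9, 28.6 and 13.0 in shallow barcodes. mt-Co1, of complex IV, had 39.9, 23.6 and 17.0 against 8.93, 13.7 and 4.33. Many nuclear genes for the same complexes lay on the opposite side, 41 of 78 tested, while 36 did not pass and 1 was higher. These were the shorter genes for the most part. The nuclear list had medians of −0.92 under 500 nt (45 genes) and −0.52 from 500 to under 1000 nt (21 genes). From 1000 to under 2000 nt its median was −0.08 (11 genes), and 1 gene of 2000 to under 3000 nt had 0.82.

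The 2 mitochondrial rRNAs together came to 3.59%, 10.3% and 5.09% in deep barcodes and 1.84%, 11.9% and 4.61% in shallow barcodes. This sum was higher in deep barcodes of tumours 1 and 3 and lower in tumour 2. mt-Rnr2, the large rRNA, made up most of that, with 343, 984 and 481 counts per 10000 in deep and 176, 1161 and 446 in shallow barcodes. mt-Rnr1, the small rRNA, was higher in deep barcodes of every tumour, with 16.6, 43.5 and 27.6 against 7.46, 31.1 and 14.7. As a share of all counts, mitochondrial genes took 5.64%, 11.1% and 6.30% in deep barcodes, against 2.26%, 11.5% and 4.82% in shallow barcodes. The mean difference was 1.48 percentage points ± 1.90 (SD, n = 3), higher in 2 of 3 tumours (exact sign-flip permutation test, two-sided, p = 0.5, where 0.25 is the smallest p that 3 pairs allow).

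**Figure D4:**
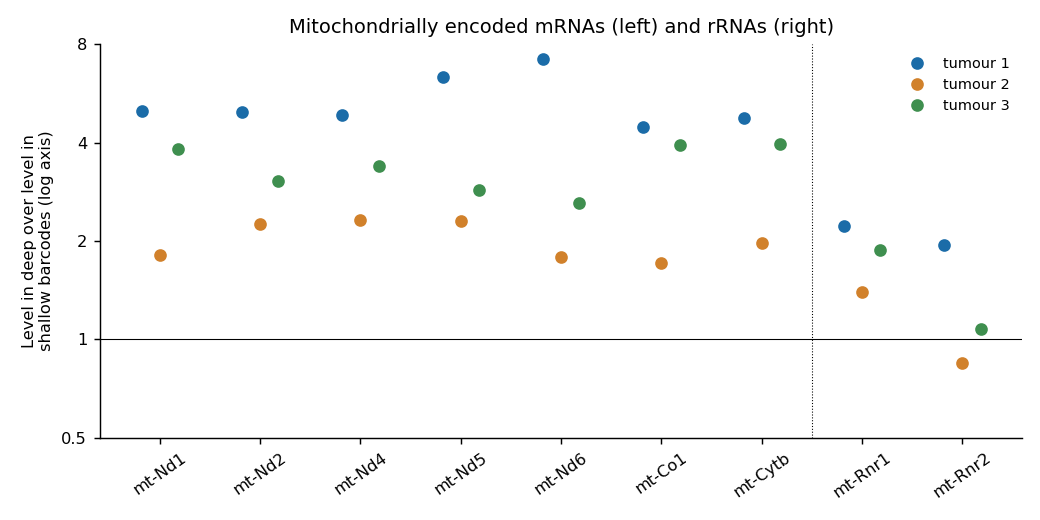
Level of 7 mitochondrial mRNAs, left of the dotted line, and 2 rRNAs, right of it, in deep barcodes over that in shallow barcodes (log axis), 1 point for each tumour. All mRNA points lie above 1, with tumour 1 the highest and tumour 2 the lowest, and mt-Rnr2 lies near 1 in tumours 2 and 3.

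Levels also differed between bins of depth inside and between the sets. In tumour 1 the ribosomal protein share was 4.84%, 3.60%, 1.70% and 1.54% for barcodes with 50 to under 100, 100 to under 200, 200 to under 500 and at least 500 counts. In tumour 3 the same bins held 4.85%, 4.58%, 2.51% and 2.02%, so most of the step there lay between the 2 bins that meet at 200 counts. Tumour 2 went down to 1.37% in the bin from 200 to under 500 counts and had 1.82% in the last, which rests on 9 barcodes. Malat1 took 1.75%, 2.84%, 4.89% and 5.61% in tumour 1 and 3.00%, 3.39%, 5.26% and 5.49% in tumour 3. Erythroid mRNA in tumour 3 held 0.115%, 0.129%, 0.0365% and 0.0295%.

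**Figure D5:**
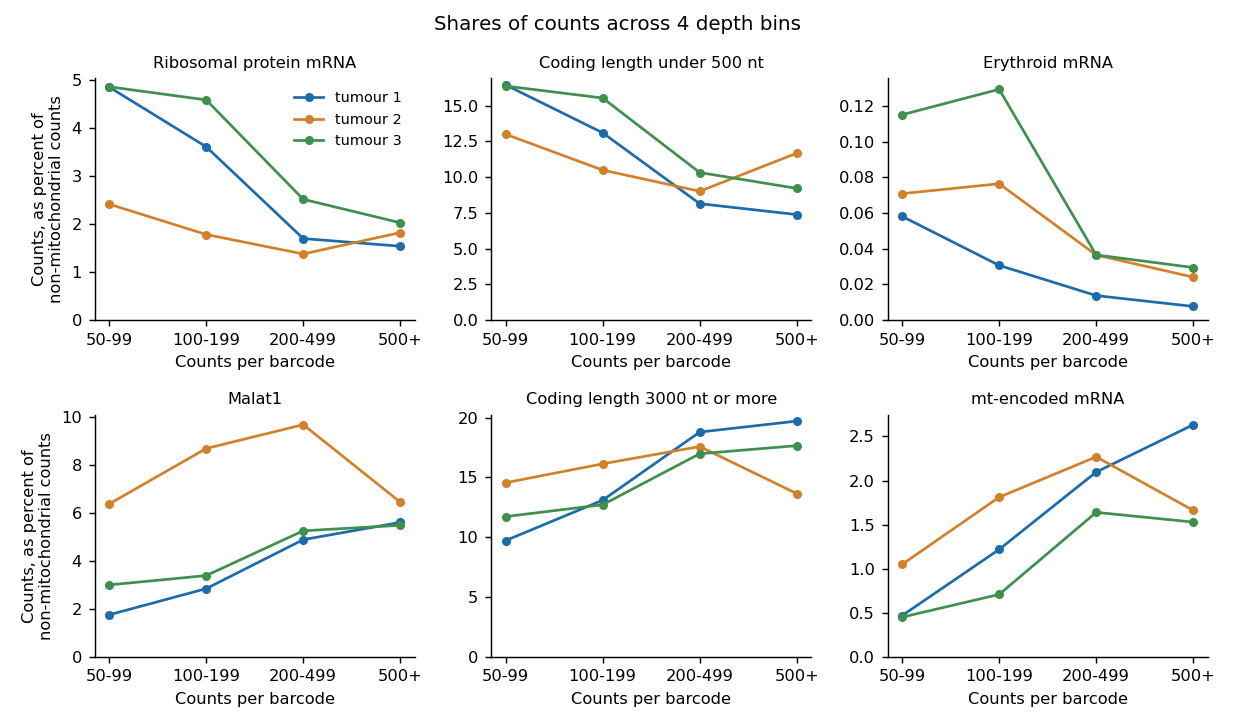
Share of non-mitochondrial counts (vertical axes from 0) in 4 bins of counts per barcode, from 50 to 99 up to at least 500, for 6 gene groups in each tumour. Ribosomal protein and short coding mRNAs go down with depth in tumours 1 and 3, erythroid mRNA does in tumour 1 and, in tumour 3, from the second bin on, Malat1 and long coding mRNAs go up, and the last bin of tumour 2 holds 9 barcodes.

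Few genes separated barcodes of 100 to under 200 counts from the shallow ones. Against the same shallow sums that the deep sets were compared with, 2 of 5698 tested genes were higher (0.0351%) and none was lower in the middle barcodes by edgeR, while 244 higher and 212 lower genes were under an unadjusted p of 0.05. The 2 were Xist, with 19.1, 23.9 and 15.3 counts per 10000 in middle and 6.53, 14.5 and 9.75 in shallow barcodes (0.98 ± 0.13, adjusted p = 7.49e-07), and Malat1 (0.44 ± 0.09, adjusted p = 0.0258). They were named after their values were seen. At the limits themselves, deep barcodes within 20 counts of 200 had ribosomal protein shares of 1.75%, 1.11% and 3.36% in tumours 1, 2 and 3, and barcodes up to 20 counts short of 200 had 2.14%, 1.80% and 3.75%. Shallow barcodes within 10 counts of 100 had 4.64%, 2.26% and 4.88%, and barcodes from 100 counts to under 10 counts above it had 4.46%, 2.14% and 4.83%.

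Single barcodes showed whether a set was even. The median deep barcode held 1.54%, 1.20% and 2.21% ribosomal protein mRNA in tumours 1, 2 and 3, and the median shallow barcode 4.60%, 1.75% and 4.60%. After every barcode was thinned to 50 counts, the spread of ribosomal protein counts over barcodes was 1.13, 1.28 and 1.24 times that of draws from 1 common pool in deep barcodes (chi-square per degree of freedom) and 1.12, 1.14 and 1.06 times in shallow barcodes. Astrocyte markers spread by 2.79, 1.01 and 3.40 times in deep barcodes, against 1.24, 1.19 and 1.10 times in shallow barcodes. Myeloid markers spread by 2.08, 1.66 and 1.99 times in deep barcodes and 1.14, 1.34 and 1.10 times in shallow barcodes, and another seed for the thinning moved the mean of the 3 deep values to 3.53, against 1.91. In tumours 1 and 3 both marker lists varied more between deep than between shallow barcodes with either seed. In tumour 2 the deep values rest on few counts, and the other seed gave a spread of astrocyte markers of 2.40 times in deep and 1.27 times in shallow barcodes.

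None of the 11705 shallow barcodes lay within 1 base of a deep barcode of its own tumour, while 44 lay within 1 base of a deep barcode of another tumour. Whether neighbouring barcodes of a library were merged or removed before deposit is not given in the sources used here, so nothing is read from the 0. Between tumours 3, 8 and 3 barcodes were shared, in the pairs 1 and 2, 1 and 3, and 2 and 3.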

How the data were processed

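The deposited tables hold UMI counts per gene and 12-base barcode of 3 Drop-seq libraries, and the authors' normalisation of these counts, if any, is not given in the sources used here. STAR, Cell Ranger and the build GRCh38 are named in the submitters' processing notes, with no version or role. The gene symbols are mouse symbols: 18566 of 19744 matched mouse names directly, and 19372 with synonyms. Coordinates were therefore read only from RefSeq GRCm38.p6. No column of another sample was present (0), and the libraries held 1150463, 248617 and 1324350 counts.

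Counts were summed per tumour and set (6 sums) and tested with edgeR 4.0.16 (R 4.3.3): quasi-likelihood test, tumour and set as terms, the non-mitochondrial total as library size, filterByExpr, Benjamini-Hochberg adjustment, threshold 0.05. Fold changes are deep over shallow. Both sums of a tumour come from the same animal, so tumour is a block; deviations of its sums from their set means correlated at 0.25, 0.23 and 0.28 over 3328 genes. P-values cover the spread between 3 tumours only. Alternatives used DESeq2 1.42.0, limma 3.58.1, other scalings, limits and filters, and thinning. The fits were tested on simulated data. Doublets were not called, and no cells were named.

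The members, the limits and the 42 gene lists were chosen with earlier results of these data known. Lists are described by counts and medians, with no test, and a few of their members are not reported here. Named genes were, among calls moved the same way in all 3 tumours with at least 100 counts, the 12 with the largest fold change each way, up to 4 members of each list by smallest p, and the 6 genes with the most counts; further members named beside them were chosen after their values were seen. Protein features were not run, since no protein table was used here; coding length (GENCODE M21) was used instead, with a length for 6523 of 6560 tested genes (99.4%). Other tools were matplotlib 3.10.9, pandas 2.3.3, scipy 1.17.1 and numpy 2.4.6 under Python 3.11.15.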

Additional observations from a re-analysis of the deposited data

How the results depend on the processing

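Directions were steadier than calls. In each alternative, every gene called in the full comparison that was tested there kept its direction, and no call of a gene chosen by the rule for named genes reversed. The alternatives reuse the same counts or parts of them, and the genes were chosen by their calls. A kept direction is thus largely built in and no independent check. Genes named beside them that did not pass were not followed. The numbers called moved. Against 1110 called genes, 516 of them higher, leaving out 1 tumour gave 0 to 1679 called and 0 to 835 higher genes. None passed without tumour 1 (274 higher and 321 lower at an unadjusted p under 0.05), and 41 did without tumour 3. Without the replicate block for tumour 55 genes were called, 22 of them higher. DESeq2 called 278 genes, 79 of them higher (71.6% of its calls lower, against 53.5% in edgeR), and gave an adjusted p for 1600 genes only. It called 40 of 73 ribosomal protein genes and 23 of 78 oxidative phosphorylation genes lower. Of 38 chromatin regulators it called 5 higher, and of 4 globin genes 1 lower. With no filter on low counts 714 were called and 318 were higher. A deep set of at least 500 counts gave 440 and 168, and a shallow set of 50 to 74 counts gave 652 and 260. Thinning deep barcodes to shallow totals gave 473 called genes, 213 of them higher, with the 50-gene minimum kept (2140 tested). Without that minimum it gave 473 and 212 of 2156 tested genes, an alternative chosen after seeing the data. Fewer genes or samples enter several of these fits. The cause of the other changes was not tested.

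The medians of the ribosomal protein list ran from −1.30 to −0.93 over all alternatives, those of oxidative phosphorylation from −0.87 to −0.59 and those of chromatin regulators from 0.38 to 0.74. With another thinning seed the mean spread over deep barcodes was 1.35 for ribosomal proteins, 1.79 for G2/M genes and 3.53 for myeloid markers, against 1.22, 1.52 and 1.91, so the myeloid spread is loosely fixed. Medians of the astrocyte, granule neuron, apoptosis, nucleolar and neural transcription factor lists changed sign under several settings and carry no direction. Depth limits low genes, most of all in tumour 2. UMI counts cover capture and counting error only.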

Other observations

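Several lists gave few calls and are given here as values. Of 10 tested tubulin genes, 7 snoRNA host genes and 12 glycolysis genes, edgeR called 0, 0 and 1 (Ldhb, a lactate dehydrogenase subunit, −0.98 ± 0.29). Tubulin mRNA took 0.544%, 0.270% and 0.614% of counts in deep barcodes and 0.762%, 0.315% and 0.649% in shallow barcodes. Of 14 apoptosis and p53 genes 2 were lower, Cycs, cytochrome c (−1.72 ± 0.48), and Bad, a pro-apoptotic BCL2 relative (−1.11 ± 0.41). Of 12 immediate early genes 1 was higher, Fosb (1.39 ± 0.35), a Fos-family transcription factor. Of 21 synapse genes 1 was higher, Gria2 (1.14 ± 0.24), an AMPA receptor subunit, with 7.28 counts per 10000 in deep and 7.57 in shallow barcodes of tumour 2. Of 18 nucleolar genes 1 was higher, Dkc1, and 2 were lower, Npm1 and Nhp2. Of 175 genes with Rik names 16 were higher (9.14%) and 19 lower (10.9%), near the shares over all genes. Without tumour 2, 28 were higher and 30 lower of 201, beside 835 and 844 of all 7227 genes.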
